A study of Luscinia megarhynchos and Luscinia luscinia with 4 samples.

Results

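Among the genes listed for the germline-restricted chromosome (GRC) of nightingales, 63 rows with a gene name of their own were taken. Each had a value above 0 in *L. luscinia* and 0 in *L. megarhynchos*. A value of 0 is not a measured absence of RNA. Reads were aligned to the GRC assembly of their own species, and a gene missing from it is also at 0 here. An empty cell among the deposited values was read as 0. The 63 rows were chosen by their deposited values. A row was taken when its symbol did not begin with LOC, when its FPKM (fragments scaled by the length of the sequence and the depth of the library) was above 0 in the *L. luscinia* ovary or testis, and when it was 0 in both *L. megarhynchos* libraries. A further 17 symbols, such as CPEB1 and SYCP1, were left out of the choice, and 3 of their rows would have passed it. The 63 rows carry 56 symbols and stand in a table of 799 rows, of which 180 were above 0 in an *L. luscinia* library. The difference between the species is therefore the rule itself and no finding, and the results below concern the levels in *L. luscinia*, the 2 tissues and the place of the template genes.

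The table comes from 4 libraries of mRNA, each of 1 wild adult bird without any treatment. These were an ovary and a testis of *L. megarhynchos*, the common nightingale, and an ovary and a testis of *L. luscinia*, the thrush nightingale. The ovary of each species came from the female whose somatic genome served as the reference, and the testis from 1 male. With 1 library per species and tissue there was no replicate, no test across birds could be made, and tissue, sex and bird cannot be told apart. Since the GRC is confined to germ cells and the number of germ cells in each piece of tissue is unknown, fewer GRC-bearing cells and less RNA per cell cannot be told apart either. The table holds GRC rows only, so markers of the ovary or the testis outside the GRC were not analysed here.

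The GRC is an extra chromosome of songbirds that is lost from somatic cells and kept in the germline, where it is passed on mainly through females. It is built of copies of genes and gene pieces from the ordinary chromosomes, which are called A chromosomes. A GRC gene therefore usually has an A-chromosomal source with nearly the same sequence, and reads of the source can be taken for reads of the copy. The rows were named by the coding sequence of the collared flycatcher (*F. albicollis*) that matched the exon, so a symbol states the best match and not that a whole gene is present.

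Members of the set matched genes of several flycatcher chromosomes, among them 17 members on chromosome 2 and a run of 3 on chromosome 6. Where a member lies on the GRC was not determined, so none can be placed at the boundary described next. The study, which named chromosomes by the zebra finch, designed primers to a boundary on the *L. luscinia* GRC between its chromosome 2 and 6 material. By PCR it found this boundary in *L. luscinia* and not in *L. megarhynchos*. The primers are shown because the largest group of neighbouring members came from flycatcher chromosome 2. All are written 5′ to 3′, and the capitals mark the 20 bases that the forward and the reverse primer on the junction share on opposite strands.
Chr2_chr6_ext_F: ccgcctggcaaatactgacgca
Chr2_chr6_ext_R: gtgcagttttgactgactgggct
Chr2_chr6_jun_F: tggtCGGGATCAATAAGGGTCGGG
Chr2_chr6_jun_R: tggatCCCGACCCTTATTGATCCCG
The outer primers lie on either side of the boundary. Both junction primers cover the same 20 bases, read from the forward strand in one and from the reverse strand in the other.

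Most members had very low deposited values. The FPKM in the higher of the 2 *L. luscinia* libraries ranged from 3.77e-05 for MACF1, which encodes a large linker of actin and microtubules, to 12.7 for SCX, which encodes the transcription factor scleraxis of tendon progenitors. The median was 0.00446, against 0.0877 over the other 117 rows above 0 in *L. luscinia* and 0.00373 over the 115 named rows above 0 in *L. megarhynchos* only, measured in that species' own libraries. An FPKM of at least 0.1 was reached by 10 members (15.9%) and by 57 of the other *L. luscinia* rows (48.7%). At least 1 was reached by 3 members, SCX, RNF212B and an identifier of PTP4A3. The lowest members just inside the rule were MACF1, CEP170B and FAM179B, none of which exceeded an FPKM of 0.000114. Just outside it, PIK3C2G was excluded by an FPKM of 0.00106 in the *L. megarhynchos* testis, and URB1 by 0.00118 in that species' ovary and 0.00707 in its testis.

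The members differed in how much of the gene was found on the GRC. The study accepted a gene for its own gene table only when a minimum share of the coding region lay on a GRC, and 17 of the 63 members (16 symbols) are in that table while 46 are not. It set this limit because a short sequence can be assigned to the wrong homologue. The names of the 46 are therefore less certain, and the functions given below are those of the matched gene. Of the 17 accepted members, 9 had an FPKM of at least 0.1 and their median was 0.102. Of the other 46, only SOWAHB reached 0.1, and the median was 0.00171. For the accepted genes the deposited value equalled whole reads over the full coding length, times the proportion of the gene on the GRC, which held within 0.01 reads for all 81 accepted rows above 0 in the *L. luscinia* ovary and all 71 in the testis. The study described its FPKM as using the length of the gene on the GRC, which is another scaling. As deposited, a gene of which a small piece was found is lowered. Both factors cancel only in the plain ratio of ovary to testis within a row. With 0.01 added to each value they do not cancel. The counts of rows higher in a tissue and the median log ratios below use that addition and so depend on both factors. The medians and thresholds that compare rows, above and below, carry both factors as well.

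The reads behind a value could be read from the table in 2 ways. For the 17 accepted members they follow from the coding length and the adjusted proportion. For the 28 members above 0 in both *L. luscinia* libraries, the ratio of the 2 values gives the smallest pair of whole reads that fits it, once the relative depth is known. The commonest ratio, found in 8 rows, was taken as that of equal reads and set 1 ovary read equal to 1.36 times the FPKM of 1 testis read. The smallest pair equalled the recovered reads for 8 of the 10 members that had both, and was a divisor of them for the other 2. The value of 1 ovary read of the smallest pair ranged from 7.35e-06 for MACF1 to 0.0464 for the PTP4A3 identifier ending in 2628, so that a low FPKM in this table is not always a low number of reads.

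SCX stood highest. Its FPKM was 12.7 in the *L. luscinia* ovary, where it ranked 4 of the 140 rows above 0, and 0.0108 in the testis, where it ranked 85. These values rest on 857 reads in the ovary and 1 in the testis, a ratio of 1169 with an exact Clopper-Pearson 95% interval of 209 to 46221. This interval and all those below cover counting error only and not the spread between birds. SCX alone held 74.5% of the FPKM summed over the members in the ovary. The members together made up 13.7% of the FPKM of all rows in the *L. luscinia* ovary, or 3.49% without SCX, and 0.729% in the testis.

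**Figure D1:**
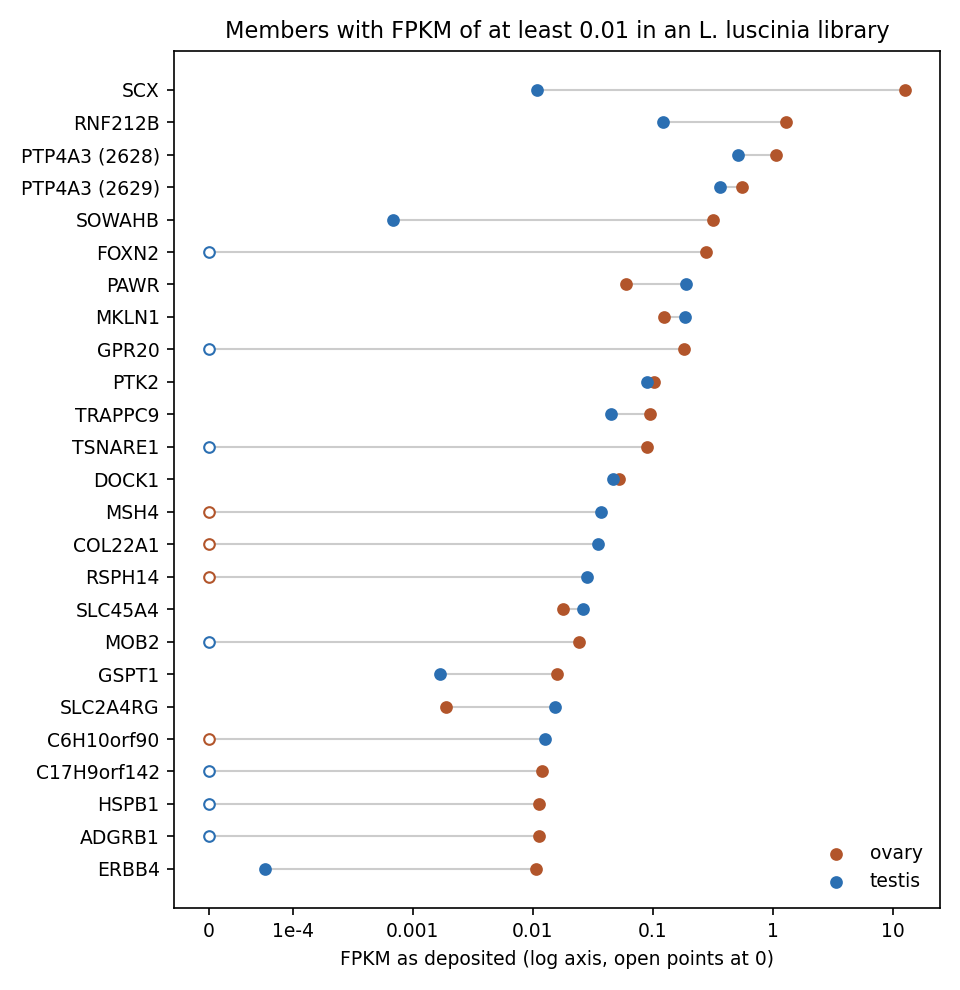
FPKM as deposited (log axis) in the *L. luscinia* ovary and testis for the 25 members with at least 0.01 in either library, 1 library per tissue, with open points for a value of 0. SCX has the widest gap among members above 0 in both libraries, 12.7 against 0.0108, while PTK2 and DOCK1 have nearly the same value in both.

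Of the genes of meiotic recombination 2 were members, RNF212B with the higher value in the ovary and MSH4 with a value in the testis only. RNF212B belongs to the RING finger proteins that, in mouse, act at crossover sites in meiosis. It had an FPKM of 1.29 in the ovary and 0.121 in the testis, from 39 and 5 reads, a ratio of 10.6 (95% interval 4.19 to 34.6). MSH4, which works with MSH5 to hold recombination intermediates, was at 0 in the ovary and at 0.0371 in the testis. It is not among the accepted genes and its reads could not be recovered. Of 20 genes on a list of meiotic recombination and synapsis, 3 were in the table and 2 were members, with 1 at least 2-fold higher in each tissue. The third was at 0 in every library. Here and below a row counts as at least 2-fold higher on FPKM with 0.01 added to each value, by which 23.9% of all 180 rows above 0 in *L. luscinia* were higher in the ovary and 27.8% in the testis, with a median log2 ratio of ovary to testis of -0.04. The lists are small, and their counts are read against these shares.

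Among kinases and phosphatases, the 2 identifiers of PTP4A3, a prenylated tyrosine phosphatase of the PRL family, were among the highest members. The identifier ending in 2628 had an FPKM of 1.07 in the ovary and 0.510 in the testis (23 and 15 reads), a ratio of 2.09 with an interval of 1.05 to 4.31. The identifier ending in 2629 had 0.553 and 0.363 (19 and 17 reads), a ratio of 1.52 with an interval of 0.750 to 3.12 that holds equal levels. Both were thus higher in the ovary by their values, but counting error left only the first on that side. The 2 identifiers carry the same symbol and stand next to each other in the flycatcher annotation. The study assigned each matched region to the flycatcher coding sequence that was its top hit. How ties between identifiers of 1 symbol were settled was not stated, so the separate counts of the 2 identifiers are uncertain.

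PTK2 encodes focal adhesion kinase, which relays signals from integrins at cell contacts. It had 5 identifiers in the set. The one ending in 2384, the only one among the accepted genes, had 0.102 in the ovary and 0.0903 in the testis (19 and 23 reads, ratio 1.13, interval 0.580 to 2.16). The identifier ending in 2383 had 0.00419 in the ovary and 0.00230 in the testis, and the other 3 stayed at or below 0.000284 in both. No PTK2 row had an interval that left equal levels, by the smallest pair where the reads could not be recovered. The FPKM worth of 1 ovary read of the smallest pair differed 27.8-fold between the PTK2 rows, so the differences between identifiers are not differences in reads alone.

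Other members with kinase functions differed widely in reads. MOB2, a partner of NDR kinases, was at 0.0243 in the ovary and 0 in the testis and rested on 1 read. BRSK2, a kinase of the AMPK-related family, was at 0 in the ovary and 0.00569 in the testis, also 1 read. ERBB4, a receptor tyrosine kinase for neuregulins, was at 0.0107 in the ovary and 5.86e-05 in the testis. It was outside the fixed list and not among the accepted genes, but its smallest pair was 134 reads to 1, a ratio of 183 with an interval of 32.2 to 7272. The list of protein kinases and phosphatases had 20 genes, of which 9 were in the table and 4 were members (9 rows), with 2 rows at least 2-fold higher in the ovary, a share near the 23.9% of all rows, and none in the testis. The median log2 ratio of these 9 rows was 0.16. Another 4 of its genes were above 0 in *L. megarhynchos*.

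Besides SCX, 2 further members were on a list of 20 transcription factors and related proteins. FOXN2, a forkhead factor, was at 0.278 in the ovary (34 reads) and 0 in the testis. Against 3 reads, the limit that a count of 0 allows, it was at least 15.5-fold higher in the ovary. This bound takes the 34 reads as exact, and the exact 95% interval, which also covers their counting error, begins at 11.9. PAWR, a leucine zipper protein known for promoting apoptosis, had the opposite order, with 0.0594 in the ovary and 0.189 in the testis. The ratio of testis to ovary was 3.18. With its 6 ovary and 26 testis reads the interval was 1.28 to 9.44, whereas the smallest pair, 3 and 13, gave 0.873 to 17.4. Of the 10 listed genes in the table, 7 were above 0 in *L. megarhynchos*, FOXN2 among them by another identifier. Of the 3 members 2 were at least 2-fold higher in the ovary and 1 in the testis.

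FOXN2 is also the 1 symbol that was above 0 in both species by different identifiers. A second FOXN2 coding sequence stood at 0.471 FPKM in the ovary of *L. megarhynchos* and at 0 in the other 3 libraries, while the member had 0.278 in the *L. luscinia* ovary only. By symbol, FOXN2 was thus above 0 in both ovaries and at 0 in both testes, and summing rows by symbol removed it from the set. PTK2, SLCO1C1, BRSK2 and C6H10orf90 each had 1 other identifier in the table, at 0 in every library.

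MKLN1 and DOCK1, which act in cell spreading and migration, had intervals that hold equal levels. MKLN1 encodes muskelin, a kelch-repeat protein of an E3 ubiquitin ligase complex. It had 0.123 in the ovary and 0.186 in the testis (29 and 60 reads), and the ratio of testis to ovary of 1.52 had an interval of 0.958 to 2.45. DOCK1, an exchange factor that activates Rac, had 0.0526 and 0.0462 (20 and 24 reads), a ratio of 1.14 with an interval of 0.595 to 2.15. ADGRB1, an adhesion receptor for phosphatidylserine, was at 0.0112 in the ovary and 0 in the testis, with 4 reads. The intervals of DOCK1 and MKLN1 hold equal levels but reach about 2-fold on one side, so that equal levels were not shown.

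Of the membrane and vesicle proteins on a list, 5 were members, and 2 of these, GPR20 and TSNARE1, were above 0 in the ovary alone, as were 25% of all 180 rows. GPR20, an orphan G protein-coupled receptor, was at 0.181 in the ovary (8 reads) and 0 in the testis, at least 3.64-fold higher against 3 reads, with an exact interval that begins at 2.33. TSNARE1, a protein with a t-SNARE domain, was at 0.0890 (5 reads) and 0, at least 2.27-fold higher in the same way, with an exact interval that begins at 1.25. TRAPPC9, a subunit of the TRAPP complex that tethers vesicles, was above 0 in both, at 0.0941 and 0.0446 (17 and 11 reads), and its ratio of 2.11 had an interval of 0.931 to 4.98. SLC45A4, a solute carrier, had 0.0179 and 0.0263 with a smallest pair of 1 and 2 reads, and SLCO1C1, a carrier of thyroid hormone, had 1 read in each. Of the 20 genes of this list 8 were in the table. The same 2 members were at least 2-fold higher in the ovary and none in the testis, and the median log2 ratio was 0.93. GPR20 is a receptor and no transporter, although it stood in that list.

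By the 2-fold count fewer members were higher in the testis than in the ovary, although 19 were above 0 in the testis alone and 16 in the ovary alone. COL22A1, a collagen of tissue junctions, was at 0 in the ovary and 0.0346 in the testis, with 9 reads and at least 2.20-fold higher in the testis against 3 reads, with an exact interval that begins at 1.45. It was the only member of 20 listed genes of the extracellular matrix, of which 3 were in the table. RSPH14, a component of the radial spokes of cilia and flagella, was at 0 and 0.0281, and C6H10orf90 at 0 and 0.0126. SLC2A4RG, a zinc finger regulator of the glucose transporter gene SLC2A4, had 0.00189 in the ovary and 0.0153 in the testis. Its smallest pair was 1 and 11 reads, and the ratio of testis to ovary was 8.07 with an interval of 1.17 to 347.

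Some members outside the lists had higher values in the ovary. SOWAHB, an ankyrin repeat protein, had 0.317 in the ovary and 0.000679 in the testis. Its smallest pair was 342 reads to 1, a ratio of 466 with an interval of 83.2 to 18477, although it was not among the accepted genes. GSPT1, the translation termination factor eRF3a, had 0.0160 and 0.00168 in 1 identifier, a pair of 7 and 1 with a ratio of 9.55 (interval 1.23 to 430.3), and 0.00362 and 0 in the other. HSPB1, a small heat shock protein, was at 0.0113 in the ovary and 0 in the testis, and C17H9orf142 at 0.0119 and 0.

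The other 38 members (34 symbols) stayed under an FPKM of 0.01 in both libraries, and 2 of them, BRSK2 and SLCO1C1, were among the accepted genes. Of these 38, 9 were above 0 in the ovary alone, 15 in the testis alone and 14 in both. For all 14 the interval of the smallest pair held equal levels.

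Several members of this low group had more testis than ovary reads in their smallest pair. TRIM9, a ubiquitin ligase known from neurons, had 0.00162 in the ovary and 0.00446 in the testis, a pair of 4 and 15 with a ratio of testis to ovary of 2.75 (interval 0.876 to 11.4). RBPJL, a transcription factor known from the exocrine pancreas, had 0.00139 and 0.00356 (2 and 7). ATF1, a factor of the CREB family, had 0.00236 and 0.00693 (1 and 4), and CAPNS2, a small subunit of calpain, had 0.00415 and 0.00912 (1 and 3). MACF1 had a pair of 1 and 7 and an interval of testis to ovary of 0.659 to 231. REL, a subunit of NF-kappa-B, had the opposite order, with 0.000999 and 0.000366 (2 and 1). By the smallest pair none of these 6 could be placed in a tissue. Their true reads could be multiples of the pair, which would narrow the interval, and could not be recovered.

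The low members of a single tissue had no pair and hence no interval. In the testis alone, FAM135B was highest at 0.00814. It was followed by BRSK2, by SETD1B, a histone H3 methyltransferase, at 0.00498 and by RNF41, a ubiquitin ligase, at 0.00362. Lower in the same tissue were AVPR1B, a vasopressin receptor, at 0.00178, the kinase PAK2 at 0.000572, SYNJ1, a phosphoinositide phosphatase, at 0.000444 and VPS13A, a lipid transfer protein, at 0.000420. In the ovary alone the second GSPT1 identifier was highest at 0.00362, before ACSL6, which activates fatty acids, at 0.00205. RBM15B, an RNA-binding protein, was at 0.000347 in the ovary. RBM33 was split by identifier, with 0.000120 in the ovary alone for one and 0.000308 in the testis alone for the other.

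Over all 63 members, 16 (25.4%) were above 0 in the ovary alone, 19 (30.2%) in the testis alone and 28 (44.4%) in both. Over all 180 rows above 0 in *L. luscinia* the ovary alone had 25% and the testis alone 22.2%. By the same 2-fold count 13 members (20.6%) were higher in the ovary, against 23.9% of all 180 rows. In the testis 6 members (9.52%) were higher, against 27.8%. The 180 rows include the members, and over the other 117 rows the shares were 25.6% in the ovary and 37.6% in the testis. The median log2 ratio of ovary to testis was 0.01 over the members and -0.04 over the 180 rows. The 38 members under 0.01 in both libraries have ratios drawn towards 0 by the added 0.01. The median over the members is therefore no sign of equal levels. A row needs an FPKM of at least 0.01 to reach 2-fold on this scale. This level was reached by 25 members (39.7%), 118 of all 180 rows (65.6%) and 93 of the other 117 (79.5%). The shares are not comparable beyond that. The 13 and 6 became 17 and 4 when the ovary library was scaled up 1.97-fold, so that both libraries had the same FPKM sum, and 15 and 5 with the median ratio of the rows, 1.47-fold. Both scalings raise the ovary in every row. The shares of all 180 rows were not counted after scaling, so the scaled counts have nothing to be read against. On the log2 scale these factors are 0.97 and 0.55, and with 0.01 added to each value the median over the members became 0.04 and 0.02.

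**Figure D2:**
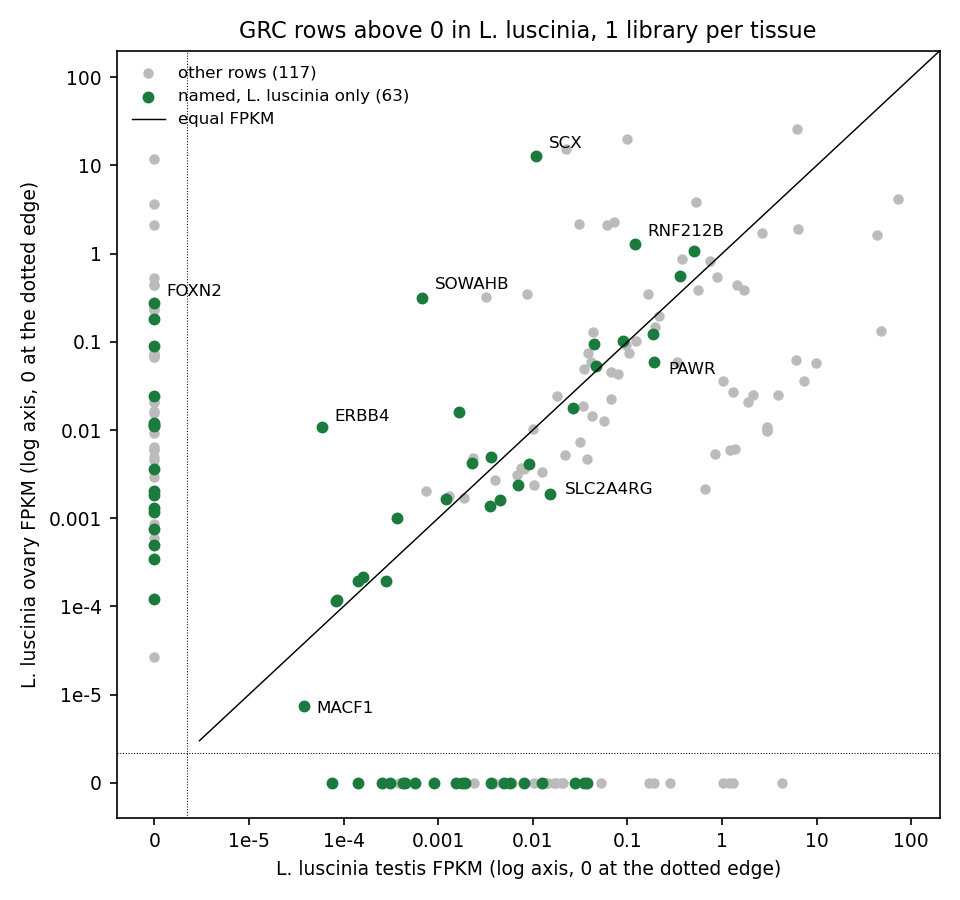
FPKM in the *L. luscinia* ovary (vertical, log axis) against the testis (horizontal, log axis) for the 63 members and the other 117 rows above 0 in *L. luscinia*, with values of 0 at the edges. The members spread from 3.77e-05 to 12.7, and few of them lie at high testis values, where other rows reach 71.9.

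By counting error alone, 6 of the 28 members above 0 in both tissues had an interval of the smallest pair that lay on the ovary side. These were SCX, SOWAHB, ERBB4, RNF212B, GSPT1 and PTP4A3 (the identifier ending in 2628). On the testis side there was 1, SLC2A4RG, and PAWR joined it when the recovered reads were used. Each interval is at 95% on its own, with no correction for the number of intervals. Those of PTP4A3 and GSPT1 began at 1.05 and 1.23, and that of SLC2A4RG, testis to ovary, at 1.17. The intervals of SCX, SOWAHB, ERBB4 and RNF212B began at 4.19 or higher. A pair could be found for 88 of the 95 rows above 0 in both *L. luscinia* libraries, including all 28 members. Of these 88 rows, 15.9% lay on the ovary side and 27.3% on the testis side. Among the paired members these were 21.4% and 3.57%. The 88 rows include the members, rows without a pair are not counted, and reads per row were not matched. The shares are therefore not read as a difference. After either scaling no member was left on the testis side, and 10 or 8 were on the ovary side. Both scalings raise the ovary in every row, and the shares over all rows were not counted after scaling. These scaled counts are therefore no result about the members. As deposited, the other 21 members held equal levels in the interval of their smallest pair, which is the widest that the ratio allows. Of the 28, 9 had a smallest pair of at most 3 reads, of which 6 had 1 and 1.

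**Figure D3:**
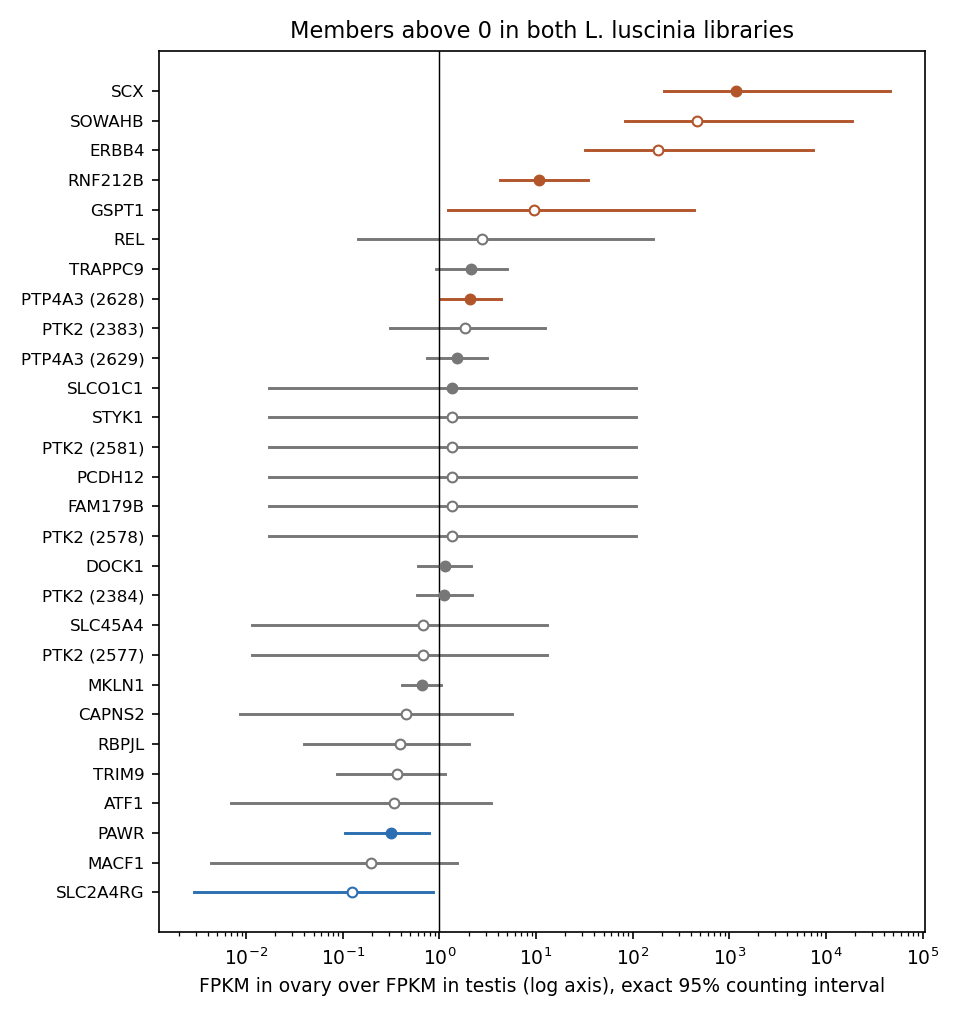
Ratio of FPKM in ovary to testis (log axis) with its exact 95% counting interval for the 28 members above 0 in both *L. luscinia* libraries, with filled points for reads recovered through the gene table and open points for the smallest pair. The interval lies on the ovary side for 6 members and on the testis side for 2, PAWR and SLC2A4RG, which both scalings moved to intervals that hold equal levels.

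Members from chromosome 2 formed the largest group by template gene. The identifiers carry the flycatcher chromosome and a serial number along the annotation, and 17 of the 63 members (27%) matched chromosome 2, against 11.1% of the other rows above 0 in *L. luscinia*, 8.70% of the named rows above 0 in *L. megarhynchos* only and 10.8% of all rows. These shares count identifiers, and PTK2, PTP4A3 and RBM33 enter the 17 more than once. The left-out CHRAC1 and AGO2 rows of chromosome 2 stand among the other rows. Shares by symbol were not counted. A run of 14 members, among the 22 table rows from its first to its last serial number, held 9 symbols, in the order FAM135B, COL22A1, TRAPPC9, PTK2, SLC45A4, GPR20, PTP4A3, TSNARE1 and ADGRB1. Of its 19 named rows 17 were above 0 in *L. luscinia* and none in *L. megarhynchos*. Of its 3 LOC rows 2 were above 0 in *L. megarhynchos*, LOC101816049 with 0.0282 in the ovary and 0.306 in the testis and LOC107603352 with 0.000592 in the ovary. The *L. megarhynchos* zeros of the 14 members follow from the rule, and a gene missing from the *L. megarhynchos* GRC assembly is also at 0 here.

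The members of this run had higher deposited values than the other members. Their median FPKM in the higher library was 0.0305, against 0.00356 for the other 49 members, and 4 of the 14 and 6 of the 49 reached 0.1. Of the 14, 8 were accepted genes, against 9 of the 49, and the part of this in the difference was not tested. In the ovary they summed to 2.12 and in the testis to 1.08. By tissue, 3 were above 0 in the ovary alone, 2 in the testis alone and 9 in both, so the run was not of 1 tissue. Neighbours differed in this respect, since FAM135B and COL22A1 at one end were above 0 in the testis alone and TSNARE1 and ADGRB1 at the other end in the ovary alone. Of these, ADGRB1 has an exact interval that holds equal levels, and the reads of FAM135B could not be recovered. The left-out symbols CHRAC1 and AGO2 also lie in this stretch. On a list of 20 genes of this neighbourhood 11 were in the table and 9 were members (14 rows), with 4 rows at least 2-fold higher in the ovary and 1 in the testis, beside 23.9% and 27.8% of all rows, and a median log2 ratio of 0.18. This list was drawn up with the table's content known and is no independent evidence of the run.

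**Figure D4:**
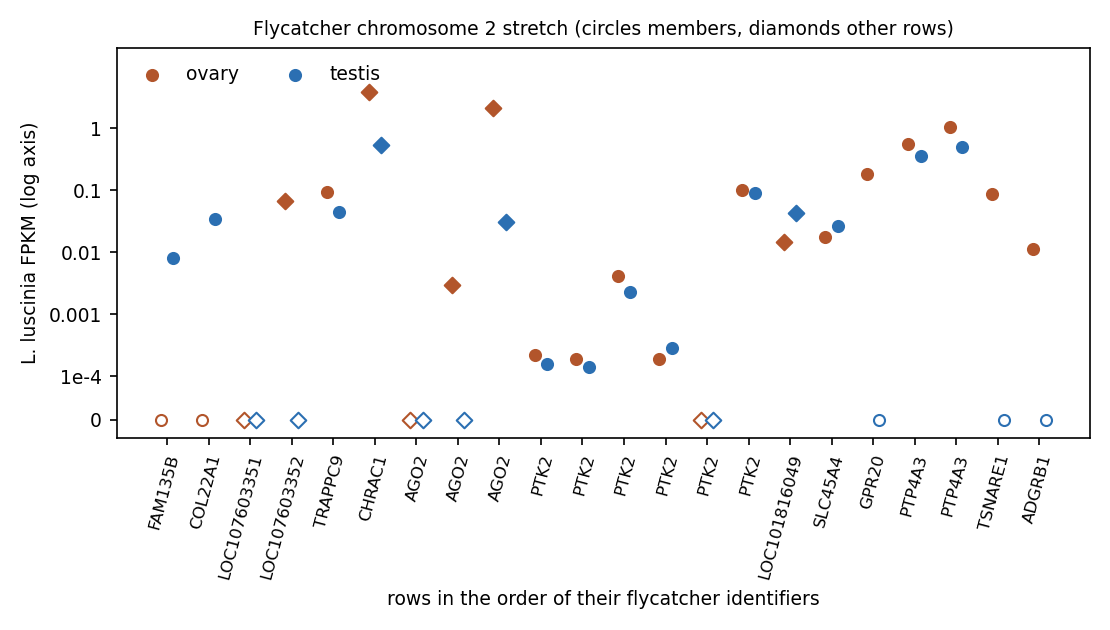
FPKM (log axis) in the *L. luscinia* ovary and testis for the 22 rows of the chromosome 2 stretch in the order of their flycatcher identifiers, with circles for the 14 members, diamonds for other rows and open symbols for 0. The PTP4A3 rows are the highest members, at 1.07 and 0.553 in the ovary, and FAM135B and COL22A1 have a value in the testis only.

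Shorter runs were found elsewhere, and 30 of the 63 members (47.6%) stood in 8 runs in all, where members of a run have serial numbers at most 50 apart. The share was 46.2% for the other *L. luscinia* rows and 40.9% for the named rows of *L. megarhynchos* only, with longest runs of 6 and 4 rows. For the LOC rows of *L. luscinia* only it was 18.2%, with a longest run of 4, and over all 799 rows it was 80%, with a longest run of 30. These sets differ in size, which also sets how many neighbours they can hold. On chromosome 6, C6H10orf90, DOCK1 and MSH4 formed a run of 3 in which 2 were above 0 in the testis alone. On chromosome 14 SNX29 and both identifiers of GSPT1 formed another run of 3. The remaining runs were pairs, among them TNIP1 and SYNPO on chromosome 13, which were both in the ovary alone at 0.00117 and 0.000501, and ATF1 and RNF212B on a scaffold, by the type of sequence in their identifiers.

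The rows most like these in choice were the 33 LOC rows above 0 in *L. luscinia* only and the 17 named rows above 0 in both species. The LOC rows had a median FPKM of 0.0210 in their higher library, 13 were at least 2-fold higher in the testis and 6 in the ovary, and their median log2 ratio was -0.56. The named rows of both species had a median of 0.0138, and 5 were higher in the ovary and 3 in the testis. The 115 named rows of *L. megarhynchos* only, in its own libraries, had 43.5% in the ovary alone, 29.6% in the testis alone and 27% in both. These are single libraries side by side, and no difference between the sets was tested.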

How the data were processed

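RNA of 1 ovary and 1 testis per species was made into stranded mRNA libraries and sequenced as 150 bp single-end reads. Trimming was done by the authors with Trimmomatic 0.39 and alignment with STAR 2.7.9a, against each species' somatic genome plus its GRC assembly, and unique reads on GRC exons were counted. Neither the counting program nor its strand setting was stated. The authors deposited FPKM values written with decimal commas, and an empty cell was read as 0. No per-sample column was left unused (0).

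Members and gene lists were chosen with earlier results of these data known. The counts of 1 gene list are not reported here. Genes were named when a member reached an FPKM of 0.1, stood in a list, lay at the edge of the rule or had another identifier above 0 in *L. megarhynchos*; RSPH14, ERBB4, SLC2A4RG, GSPT1, HSPB1, C6H10orf90, C17H9orf142, the genes of runs and those under 0.01 were named after their values were seen. Ratios used a pseudocount of 0.01 and a 2-fold threshold. Whole reads were recovered from the deposited FPKM with a tolerance of 0.01 reads. The recovery of smallest pairs was tested on simulated data for the *L. luscinia* ovary and testis, where 94 of 95 rows were given a pair and 94 were right. Intervals are exact Clopper-Pearson at 95%. Python 3.11.15, numpy 2.4.6 and scipy 1.17.1 were used.

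Alternatives were thresholds on FPKM, pseudocounts, a 4-fold threshold, both scalings, rows summed per symbol, the left-out symbols kept and other gaps between serial numbers. Coordinates are not given.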

Additional observations from a re-analysis of the deposited data

How the results depend on the processing

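The set depended on counting any FPKM above 0 as expressed. With at least 0.01, 0.1 or 1 in an *L. luscinia* library it had 25, 10 or 3 rows in place of 63, of which 10, 5 or 3 reached the threshold in the ovary alone, 5, 1 or 0 in the testis alone and 10, 4 or 0 in both. Members at least 2-fold higher in the ovary, 13 with a pseudocount of 0.01, were 5 with 0.1 and 2 with 1, 6 at 4-fold and 6 with FPKM of at least 0.1. Members higher in the testis, 6 in the same way, were 0 with 0.1, 0 with 1, 2 at 4-fold and 1 with FPKM of at least 0.1. With a pseudocount of 0.001 they were 15. The members higher in the ovary were then 19, which is within 1.5 times the 13. A larger pseudocount and a stricter threshold leave fewer rows that can pass, by construction. With recovered reads, chosen after seeing the data, 2 members in place of 1 had an interval on the testis side. The other 20 of 42 alternatives left the value within 1.5 times for counts, or within its 95% interval over the members for medians and shares. Among these, the set had 65 rows with *L. megarhynchos* values under 0.01 allowed, 55 when rows were summed by symbol and 66 with the left-out symbols kept. The median log2 ratio with a larger pseudocount was also among them. A larger pseudocount draws this median towards 0 by construction, so those alternatives are no sign of stability. No library could be left out, since each group has 1. No paired analysis was possible because the groups are single libraries of different birds and no test was made. Few reads limit a ratio: at 1 read in each tissue, as for SLCO1C1, the interval ran from 0.0174 to 107.1.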
